A study of Mus musculus with 61 samples.

Results

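The 8 wild-type control libraries of stembryos, 4 taken at 96 h and 4 at 120 h after aggregation, were compared here out of the 61 RNA-seq libraries of the series. They are the wild-type libraries made at these stages outside the time course, and each 120 h library was set against the 96 h library of the same replicate number, which gave 4 pairs. All 8 came from unmodified wild-type mouse embryonic stem cells (129/SVEV) that had been aggregated, grown in suspension and given the same pulse of Chiron, an inhibitor of GSK-3 that activates Wnt signaling, before either collection. Each library was made from pooled stembryos, so it averages over individuals and cell types. At 96 h stembryos were taken without selection, whereas at the later stage only clearly elongating ones were kept, so stage and selection cannot be told apart. The study used these libraries as the unmodified reference for stembryos with altered CTCF sites in the HoxD cluster. The 4 wild-type time-course libraries at the same stages, 2 per stage, were not part of the pairs and served as a second set.

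Stembryos (gastruloids) resemble the posterior part of a mouse embryo. At their growing end, neuromesodermal progenitors kept by Wnt and FGF signals feed the neural tube and the presomitic mesoderm, the unsegmented tissue in which Notch-driven oscillations precede the formation of somites. Somites later split into sclerotome, which gives vertebrae and ribs, and dermomyotome, which gives skeletal muscle and dermis. Hox genes are switched on from one end of each cluster to the other as the axis extends, so low-numbered genes come first and high-numbered ones later.

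As examples, which were not drawn at random, upstream sequences are shown for 3 genes that fell with the Wnt and presomitic programmes and for 2 with large rises. They are the 250 bases before the annotated start of each gene, 5′ to 3′ on the gene's own strand, from RefSeq on GRCm38.p6. Capitals mark CTTTGA or its reverse complement TCAAAG, the core letters read by TCF/LEF factors, the DNA-binding partners of beta-catenin in Wnt signaling.
Msgn1, chr12:11208949-11209198, strand -: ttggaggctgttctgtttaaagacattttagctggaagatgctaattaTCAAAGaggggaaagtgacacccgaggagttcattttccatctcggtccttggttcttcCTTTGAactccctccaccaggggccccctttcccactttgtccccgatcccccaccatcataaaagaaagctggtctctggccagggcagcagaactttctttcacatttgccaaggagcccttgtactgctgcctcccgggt
Sp5, chr2:70474673-70474922, strand +: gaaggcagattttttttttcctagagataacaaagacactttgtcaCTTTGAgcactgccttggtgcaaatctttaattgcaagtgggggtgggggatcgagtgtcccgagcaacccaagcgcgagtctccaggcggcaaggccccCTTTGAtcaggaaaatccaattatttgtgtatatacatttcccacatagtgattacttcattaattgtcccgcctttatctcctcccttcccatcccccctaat
T, chr17:8434173-8434422, strand +: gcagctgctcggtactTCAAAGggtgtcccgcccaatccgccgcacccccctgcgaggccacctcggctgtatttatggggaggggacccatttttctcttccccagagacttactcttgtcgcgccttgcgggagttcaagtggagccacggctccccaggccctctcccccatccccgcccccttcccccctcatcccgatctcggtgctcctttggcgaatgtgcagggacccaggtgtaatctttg
Pax1, chr2:147364744-147364993, strand +: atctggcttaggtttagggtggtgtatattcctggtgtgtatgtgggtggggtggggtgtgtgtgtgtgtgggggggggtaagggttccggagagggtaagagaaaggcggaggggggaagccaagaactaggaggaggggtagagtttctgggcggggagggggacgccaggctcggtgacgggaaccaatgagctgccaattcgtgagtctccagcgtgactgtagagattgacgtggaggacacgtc
Igfbp5, chr1:72874866-72875115, strand -: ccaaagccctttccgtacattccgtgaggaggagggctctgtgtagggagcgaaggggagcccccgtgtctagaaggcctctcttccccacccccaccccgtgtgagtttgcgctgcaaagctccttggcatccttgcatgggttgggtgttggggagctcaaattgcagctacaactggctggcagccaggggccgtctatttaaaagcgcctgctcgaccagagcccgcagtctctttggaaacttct

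The letters occurred 2 times upstream of Msgn1 (202 and 143 bases before the start), 2 times upstream of Sp5 (204 and 104 bases before it) and 1 time upstream of T (234 bases before it). They were not present in these windows of Pax1 or Igfbp5. Over windows running from 250 bases before to 50 bases after each annotated start, of which a gene can have several, 4 of the 15 windows of Wnt-list genes that fell held them (26.7%), as did 2 of 14 windows of presomitic genes that fell (14.3%), 2 of 6 of streak genes (33.3%), 1 of 9 of FGF genes (11.1%) and 0 of 7 of somite genes that rose, against 16.0% of all 32851 windows read. Not every gene had a window, only 9 of 13 Wnt, 13 of 14 presomitic, 6 of 10 streak, 8 of 12 FGF and 7 of 11 somite genes. Counted by gene, 4 of 9 Wnt genes held the letters (44.4%), 2 of 13 presomitic (15.4%), 2 of 6 streak, 1 of 8 FGF and 0 of 7 somite genes. The share of all genes with a window was 18.2%. The T-box letters AGGTGTGA were held by 1 of these 6 streak windows and by none of the others, against 1.28% of all windows, and the E-box letters CAGGTG by 5 of 14 presomitic windows (35.7%), 6 of 15 Wnt windows, 4 of 6 streak windows (66.7%), 1 of 9 FGF windows and 1 of 7 somite windows, against 20.2% of all windows. The TATA letters TATAAA were held by 2 of the 14 presomitic windows, 3 of the 15 Wnt windows, 1 of the 7 somite windows and none of the streak or FGF windows, against 13.6% of all windows. Both strands were read. CAGGTG and AGGTGTGA share the run AGGTG, so 1 stretch can count for both. A match describes letters in a window and was not tested as a binding site.

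Depth, read from the steps between low FPKM values (FPKM is fragments per kilobase of exon, scaled to the mapped fragments of each library), lay between 21.9 and 27.3 M fragments in the 8 controls. The libraries fell into sets that crossed the stages. Replicates 1 to 3 listed mt-Co2, a mitochondrial gene, at 1047 to 1369 FPKM, whereas replicate 4 and the time course listed it at 0.447 to 1.42 FPKM, and 13364 to 13726 genes against 11440 to 11795 reached 1 FPKM. Of the low values used for depth, 77.5% to 78.8% matched whole numbers of fragments in replicates 1 to 3, so depth is less sure there. In replicate 4 and the time course 97.7% to 98.1% did. Why the sets differ was not tested. The comparison within replicate number keeps out of each pair what both of its libraries share, but not a 0 listed at only 1 stage. Replicates 1 and 2 were much more alike than any other libraries of a stage. Over fragments recovered for single-transcript genes, the median squared deviation between them was 1.94 times what sampling alone gives at 96 h and 1.28 times at 120 h, whereas the other 10 library pairs within a stage lay between 10.1 and 19.2 times in the controls. Replicates 1 and 2 were kept as 2 replicates in the main fit, and the spread that the tests use counts them as independent. A difference beyond sampling does not show that they are. If they are not, p-values from all 4 pairs can be too low. Calls are therefore also given with replicates 1 and 2 averaged, which leaves 3 pairs. Nothing in the labels ties a replicate to a separate culture, so p-values measure only the spread between these libraries.

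**Figure D1:**
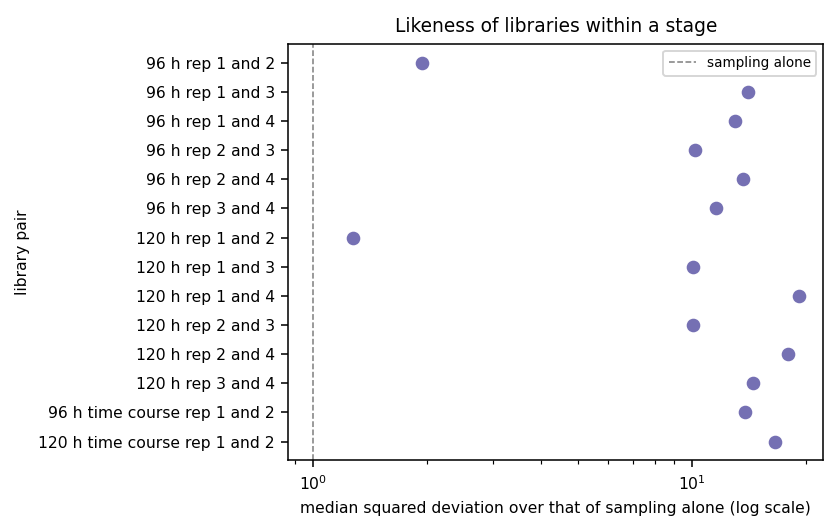
Median squared deviation between the fragment counts of 2 libraries of one stage, divided by the value that sampling alone gives (horizontal axis, log scale, no unit), for each pair of wild-type libraries. Replicates 1 and 2 of the controls sit at 1.94 (96 h) and 1.28 (120 h), and every other pair at 10.1 or above.

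Of 14194 genes with a mean of at least 1 FPKM at either stage, 4019 were higher (28.3%) and 3054 lower (21.5%) at 120 h in all 4 pairs, and 7121 moved in both directions. In limma fitted on log2(FPKM + 0.1) with the replicate number as a block, 1905 genes were called higher (13.4%) and 1393 lower (9.81%) at an adjusted p under 0.05, and every one of these 3298 genes moved the same way in its 4 pairs. The calls rest on these same pairs, so this agreement is largely built in and is no separate support. In 1562 genes (11%) all 4 libraries at 120 h lay above all 4 at 96 h, and in 1047 (7.38%) all lay below. At least a 1-unit log2 change was fitted for 472 of the genes that rose and 411 of those that fell. With replicates 1 and 2 averaged, 549 genes (3.87%) were called higher and 433 (3.05%) lower, and 974 of the 3298 calls remained. Scaling each library to its median turned the balance, with 1606 higher and 1782 lower, although the median log2 change over all genes only moved from 0.04 to -0.01. Leaving out replicate 1 gave 508 higher and 407 lower, and leaving out replicate 2 gave 475 and 378. Below, "rose" and "fell" are used of genes called with all 4 pairs, n = 4 pairs and log2 changes carry their SE. Counts of list members are to be read against the shares of all genes, 13.4% higher and 9.81% lower, or 3.87% and 3.05% with replicates 1 and 2 averaged.

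**Figure D2:**
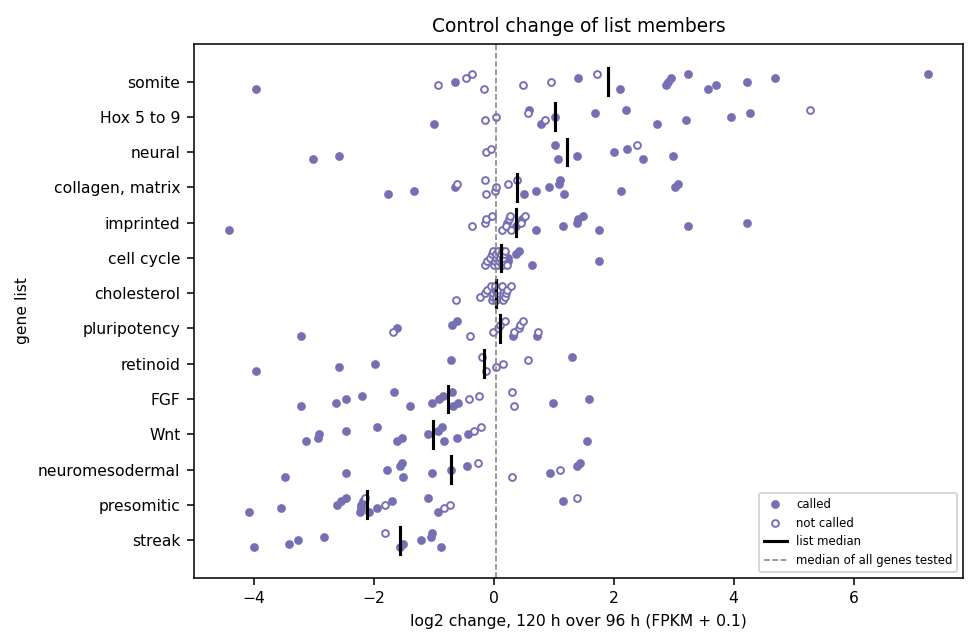
Log2 change from 96 h to 120 h in the controls (horizontal axis, log2(FPKM + 0.1) units) of each tested member of 14 gene lists (rows), filled where limma called the gene and open where it did not, with a bar at the list's median. The presomitic list is centred at -2.11 and the somite list at 1.91, and the dashed line is the median of all genes, 0.04.

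Hox genes were taken by their place in the clusters, and 28 of the 39 in the table were tested. In pooled stembryos, fewer cells of a type and less RNA per cell cannot be told apart. Of the 11 tested genes of paralog groups 1 to 4, 3 fell and 1 rose, with a median log2 change of -0.47. Of the 15 of groups 5 to 9, 9 rose and 1 fell (median 1.03). Both tested genes of groups 10 to 13 rose. The median over all genes tested was 0.04. With replicates 1 and 2 averaged, 2 of the falls and none of the rises of the first set, 4 rises and the 1 fall of the middle set and both rises of the last set were called.

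Hoxb1, the first gene of its cluster, read 99.2, 99.8, 115 and 109 FPKM at 96 h and 40.3, 39.996, 42.3 and 38.5 FPKM at 120 h in replicates 1 to 4. All 4 libraries at 120 h lay below all 4 at 96 h (log2 change -1.39 ± 0.06, adjusted p = 0.00171, and adjusted p = 0.0185 with replicates 1 and 2 averaged). Hoxd1 read 11.0, 9.26, 6.79 and 17.6 FPKM at 96 h and 5.33, 4.59, 6.21 and 4.70 FPKM at 120 h, and its groups did not overlap, but it was not called (adjusted p = 0.0802). Hoxd3 read 29.4, 30.9, 27.7 and 29.4 FPKM at 96 h and 21.7, 20.7, 16.7 and 10.3 FPKM at 120 h and was not called (adjusted p = 0.0552). Hoxb4 fell (log2 change -0.47 ± 0.08, adjusted p = 0.0249), whereas Hoxc4 was the only tested member of these groups to rise (log2 change 1.03 ± 0.16, adjusted p = 0.0175). Hoxd4, Hoxa2, Hoxb2 and Hoxb3 had overlapping groups and log2 changes between -0.35 and 0.05.

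In the middle of the clusters, Hoxb5 fell (log2 change -1.001 ± 0.12, adjusted p = 0.0107) and Hoxa5, Hoxc5, Hoxb6 and Hoxc8 were not called. Hoxb8 and Hoxb9, already at 18.5, 21.7, 25.2 and 21.3 FPKM and 49.7, 60.5, 61.9 and 57.1 FPKM at 96 h, rose by 0.58 and 0.78 on the log2 scale. Hoxa6 rose from 0.284, 0.229, 0.307 and 0.0648 FPKM to 2.60, 2.87, 3.29 and 2.21 FPKM (log2 change 3.21 ± 0.18, adjusted p = 0.00251), and Hoxc6 from 4.30, 4.62, 7.85 and 4.21 FPKM to 20.8, 20.8, 23.3 and 31.4 FPKM (log2 change 2.21 ± 0.23, adjusted p = 0.00775). At 96 h Hoxa9 read 0.567, 0.610, 1.77 and 0.265 FPKM, and at 120 h 14.6, 14.5, 17.7 and 11.5 FPKM (log2 change 4.27 ± 0.31, adjusted p = 0.00377). Hoxc9 went from 0.365, 0.553, 1.06 and 0.394 FPKM to 9.56, 10.1, 9.15 and 11.1 FPKM. In both, every 120 h library was above every 96 h library.

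Hoxd9 read 0.736, 1.05, 5.46 and 0.859 FPKM at 96 h and 12.7, 12.6, 11.99 and 4.93 FPKM at 120 h (log2 change 2.73 ± 0.52, adjusted p = 0.0304), and the groups overlapped, with replicate 3 high at 96 h and replicate 4 low at 120 h. Hoxd8 rose in all 4 pairs (log2 change 1.69 ± 0.34, adjusted p = 0.0338), again least in replicate 4, and Hoxb7 rose by 1.03. Neither Hoxd8, Hoxd9 nor Hoxb7 was called with replicates 1 and 2 averaged. Hoxc10 was listed at 0 in 3 of the 4 libraries at 96 h and at 0.0628 FPKM in replicate 3, and read 8.04, 6.72, 12.8 and 6.91 FPKM at 120 h. Hoxa10 rose from 0.158, 0.0960, 0.172 and 0.262 FPKM to 3.93, 3.59, 4.97 and 3.22 FPKM (log2 change 3.90 ± 0.21, adjusted p = 0.00235). The other 10 genes of groups 10 to 13 stayed below the filter, with no library above 1.35 FPKM, the highest value of Hoxd10.

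Values for 2 Hox genes could not be read as levels. Hoxa7 was listed at 11.2 and 16.6 FPKM in replicates 1 and 2 and at exactly 0 in replicates 3 and 4 at 96 h, while all 4 libraries at 120 h read between 42.0 and 49.5 FPKM, and Hoxa3 was listed at 0 in replicate 4 at 120 h with 10.2 to 20.02 FPKM in the other 7 libraries. Neither was called. Hoxa4 was listed at 0 in all 8.

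**Figure D3:**
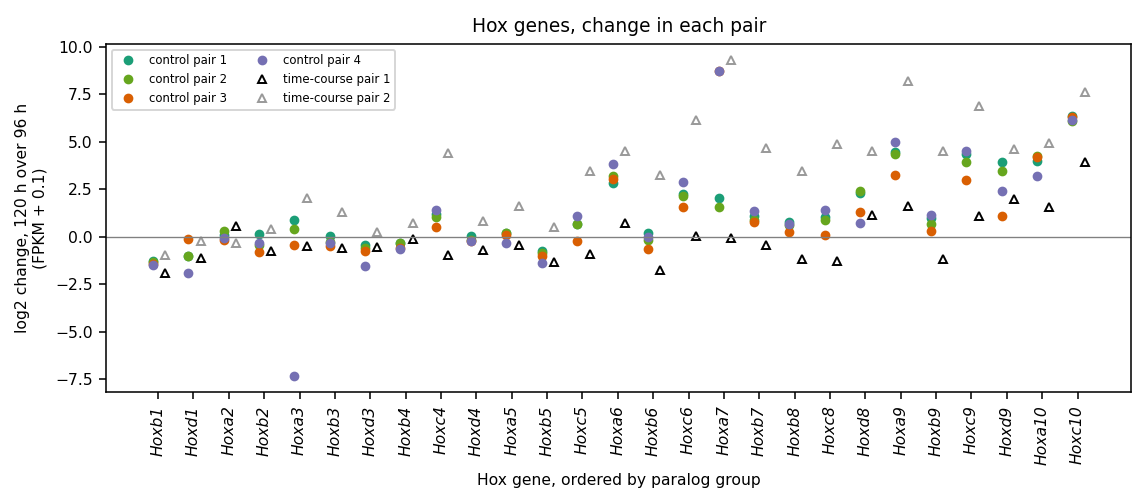
Log2 change from 96 h to 120 h (vertical axis, log2(FPKM + 0.1) units) of tested Hox genes in order of paralog group (horizontal axis), with circles for the 4 control pairs and triangles for the 2 time-course pairs. Control pairs of Hoxb1 lie between -1.50 and -1.30 and those of Hoxc10 between 6.09 and 6.35, while the 2 time-course pairs of many middle genes stand far apart. The lone points of Hoxa3 and Hoxa7 beyond 5 units from 0 rest on libraries listed at 0.

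Caudal-type genes and their partners in axial elongation split. Cdx1, a homeobox activator of Hox genes, read 124, 137, 199 and 194 FPKM at 96 h and 11.0, 11.2, 22.0 and 14.98 FPKM at 120 h (log2 change -3.48 ± 0.10, adjusted p = 0.00103), and the groups did not overlap. Cdx2 was lower in all 4 pairs but was not called (log2 change -0.27 ± 0.10, adjusted p = 0.115), and Cdx4 rose (log2 change 0.95 ± 0.22, adjusted p = 0.0480), a call lost with replicates 1 and 2 averaged (adjusted p = 0.139). Nr6a1, a nuclear receptor of the trunk stage, fell from 72.1, 70.5, 76.3 and 89.97 FPKM to 33.8, 33.6, 30.7 and 47.0 FPKM (log2 change -1.10 ± 0.08, adjusted p = 0.00365), and Lin28a, an RNA-binding inhibitor of let-7 maturation, fell by 0.61. Gdf11, a ligand that times the trunk-to-tail passage, rose (log2 change 0.92 ± 0.15, adjusted p = 0.0208). Of the 7 tested caudal and timing genes 2 rose and 3 fell, and no rise and 2 falls were called with replicates 1 and 2 averaged, Lin28a and Gdf11 not among them.

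Among 15 genes of neuromesodermal progenitors, 9 fell and 3 rose (median log2 change -0.70), and 8 falls and 1 rise remained with replicates 1 and 2 averaged. T (brachyury), the T-box factor of streak and tail bud, read 76.7, 87.5, 122 and 65.3 FPKM at 96 h and 27.3, 25.1, 35.3 and 29.2 FPKM at 120 h. The 120 h values all lay below the lowest 96 h value (log2 change -1.56 ± 0.13, adjusted p = 0.00529). In contrast, Sox2, the neural and progenitor factor found beside T in neuromesodermal progenitors, rose from 7.18, 7.96, 13.9 and 7.72 FPKM to 20.1, 20.8, 21.6 and 32.4 FPKM (log2 change 1.38 ± 0.25, adjusted p = 0.0256, and adjusted p = 0.106 with replicates 1 and 2 averaged). Evx1 fell by 1.51 and Grsf1, an RNA-binding factor, from 216, 224, 245 and 208 FPKM to 57.9, 59.4, 64.9 and 78.0 FPKM, whereas Epha5, an ephrin receptor, rose by 1.43. Nkx1-2 fell least (log2 change -0.45 ± 0.10, adjusted p = 0.0446) and its groups overlapped.

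Wnt pathway genes fell together in these libraries, with 13 of 16 tested members called lower and 1 higher, a median log2 change of -1.01 and 10 falls with replicates 1 and 2 averaged. Among the ligands, Wnt3a read 21.4, 23.9, 26.5 and 21.5 FPKM at 96 h and 4.71, 3.76, 5.43 and 3.09 FPKM at 120 h (log2 change -2.46 ± 0.13, adjusted p = 0.00232). Wnt8a fell from 26.5, 29.3, 23.1 and 30.5 FPKM to 2.197, 2.72, 3.11 and 4.39 FPKM (log2 change -3.14 ± 0.16, adjusted p = 0.00232), Wnt5b by 1.53 and Wnt6 by 2.93. Wnt5a was not called (log2 change -0.21 ± 0.07, adjusted p = 0.102). Targets and feedback genes fell too. Sp5, a zinc-finger target gene, read 16.8, 21.6, 23.2 and 16.2 FPKM at 96 h and 2.56, 2.21, 3.86 and 1.68 FPKM at 120 h (log2 change -2.91 ± 0.15, adjusted p = 0.00232). Lef1, the DNA-binding factor itself, went from 109, 104, 101 and 155 FPKM to 39.5, 38.1, 40.7 and 33.4 FPKM (log2 change -1.61 ± 0.17, adjusted p = 0.00870). Its relative Tcf7 fell by 0.86, and the feedback inhibitors Axin2, Nkd1 and Notum by 0.93, 1.09 and 0.82. Sfrp2, a secreted Wnt-binding protein, was the 1 member that rose (log2 change 1.56 ± 0.14, adjusted p = 0.00577). Rspo3, a secreted enhancer of Wnt reception that is on the presomitic list, read 61.2, 60.7, 66.7 and 60.1 FPKM at 96 h and 13.5, 12.9, 15.6 and 12.8 FPKM at 120 h (log2 change -2.18 ± 0.05, adjusted p = 0.000578).

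FGF ligands and their targets moved with them (12 of 18 fell, 2 rose, median -0.76, 8 falls and no rise with replicates 1 and 2 averaged). Fgf4 read 12.2, 13.7, 20.7 and 15.4 FPKM at 96 h and 1.05, 1.18, 3.11 and 1.43 FPKM at 120 h (log2 change -3.22 ± 0.15, adjusted p = 0.00216). Fgf3 fell by 2.62, Fgf15 by 2.46 and Fgf8, the main ligand of the tail end, by 1.03, from 45.8, 61.5, 71.7 and 51.5 FPKM to 28.9, 25.4, 36.7 and 22.3 FPKM. Spry4, an inhibitor induced by FGF signaling, fell (log2 change -2.19 ± 0.12, adjusted p = 0.00235), and Dusp6, the ERK phosphatase, by 0.84. Spry1, of the same family as Spry4, rose (log2 change 0.98 ± 0.14, adjusted p = 0.0162), as did the receptor Fgfr2 (log2 change 1.597 ± 0.36, adjusted p = 0.0431), whose 96 h value in replicate 3 was 1.64 FPKM against 6.06 to 8.03 in the other 3. Fgfr1, Fgf17, Fgf18 and Dusp4 were not called.

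**Figure D4:**
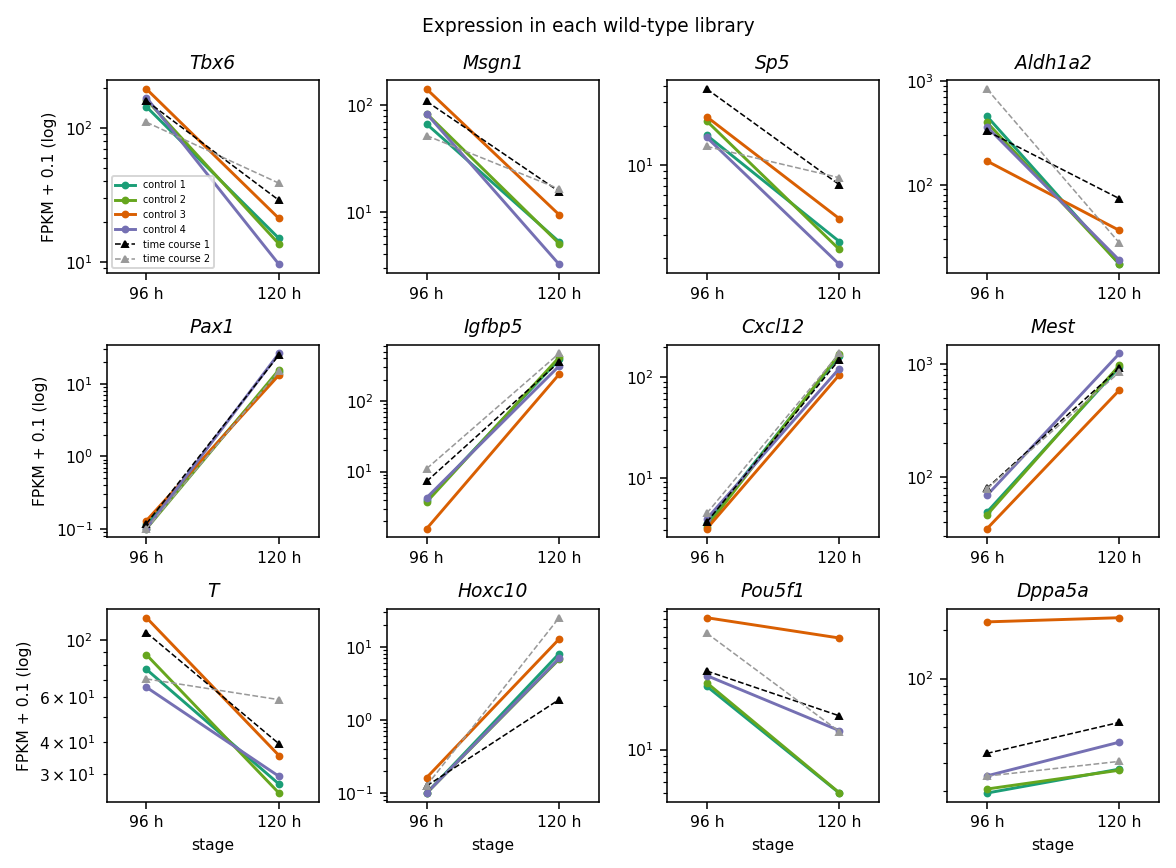
FPKM + 0.1 (vertical axis, log scale) in each of the 12 wild-type libraries for 12 genes, with a line joining the 96 h and 120 h libraries of each control replicate (solid) and time-course replicate (dashed). Lines of Tbx6, Msgn1, Sp5 and Aldh1a2 all descend, those of Pax1, Igfbp5, Cxcl12 and Mest all rise, and replicate 3 lies apart for Pou5f1 and Dppa5a.

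Presomitic mesoderm and segmentation-clock genes had the lowest median of the lists, with 14 of 20 tested genes called lower, 1 higher and a median log2 change of -2.11. With replicates 1 and 2 averaged 10 falls remained, and in 16 of the 20 genes all 120 h libraries lay below all 96 h libraries, against 7.38% of all genes. Tbx6, the T-box factor that makes progenitors presomitic, read 144, 162, 195 and 168 FPKM at 96 h and 14.9, 13.5, 21.0 and 9.52 FPKM at 120 h (log2 change -3.54 ± 0.18, adjusted p = 0.00232). Msgn1, a basic helix-loop-helix factor of the same tissue, read 66.8, 83.6, 142 and 83.3 FPKM at 96 h and 5.16, 4.96, 9.33 and 3.13 FPKM at 120 h (log2 change -4.08 ± 0.19, adjusted p = 0.00203). Replicate 3 was highest at both stages for both genes. The Notch ligand Dll1 went from 199.7, 213, 223 and 283 FPKM to 55.4, 51.0, 56.0 and 34.8 FPKM (log2 change -2.23 ± 0.23, adjusted p = 0.00752), and Dll3 fell by 2.22. Clock genes fell, Hes7 by 2.22 and Lfng, the sugar transferase that tunes Notch, by 1.69.

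Genes of the segment border fell with a wider spread between pairs. Mesp2 read 25.8, 25.2, 13.7 and 34.9 FPKM at 96 h and 3.91, 3.36, 6.34 and 2.44 FPKM at 120 h (log2 change -2.61 ± 0.46, adjusted p = 0.0255) and Ripply2 52.0, 45.4, 19.6 and 62.5 FPKM at 96 h and 7.77, 7.13, 11.1 and 3.92 FPKM at 120 h (log2 change -2.54 ± 0.54, adjusted p = 0.0388). In both, replicate 3 was the lowest at 96 h and the highest at 120 h, and neither call remained with replicates 1 and 2 averaged (adjusted p = 0.106 and 0.139). Ripply1, of the same family as Ripply2, was higher in 3 pairs and lower in replicate 4 and was not called. Cer1, a secreted antagonist, read 66.7, 63.8, 9.85 and 109 FPKM at 96 h and 16.2, 14.96, 13.8 and 9.01 FPKM at 120 h, with replicate 3 moving against the other 3 pairs. Hes1, a repressor induced by Notch, was the 1 member that rose (log2 change 1.163 ± 0.12, adjusted p = 0.00764). Snai1, the zinc-finger repressor of epithelial genes, fell by 2.08.

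Genes of retinoid handling moved in both directions. Aldh1a2, the enzyme that makes retinoic acid in somites, read 458, 400.1, 169 and 363 FPKM at 96 h and 16.9, 17.0, 36.0 and 18.5 FPKM at 120 h. This was among the 10 largest differences in FPKM, and the 2 stages did not overlap (log2 change -3.95 ± 0.49, adjusted p = 0.0114), but replicate 3 changed least and the adjusted p was 0.0598 with replicates 1 and 2 averaged. Crabp1, a retinoic acid-binding protein, went from 429, 439, 328 and 397 FPKM to 72.5, 66.7, 74.2 and 53.7 FPKM (log2 change -2.58 ± 0.14, adjusted p = 0.00240). Cyp26a1, which degrades retinoic acid, fell by 0.70. Dhrs3, which returns retinaldehyde to retinol, rose (log2 change 1.31 ± 0.15, adjusted p = 0.0101). Of the 10 tested genes 4 fell, 1 rose and 5 were not called, Crabp2 and the receptors Rara and Rarg among them, and 3 falls and 1 rise were called with replicates 1 and 2 averaged.

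Streak and gastrulation genes fell, 10 of 11 tested genes being called lower and none higher (median -1.56, 8 falls with replicates 1 and 2 averaged). Foxh1, the partner of Smads in Nodal signaling, read 58.4, 52.2, 36.6 and 50.9 FPKM at 96 h and 2.85, 1.97, 6.08 and 2.27 FPKM at 120 h (log2 change -3.99 ± 0.40, adjusted p = 0.00738). Mesp1 fell by 3.42, Lhx1 by 3.26 and Mixl1 by 2.82. Nodal and its antagonists Lefty1 and Lefty2 also fell within every pair, but from very different levels. Lefty1 read 1.36, 1.76, 60.1 and 6.99 FPKM at 96 h and 0.992, 0.535, 23.9 and 3.06 FPKM at 120 h, so that replicate 3 at 120 h was above replicates 1, 2 and 4 at 96 h, and Nodal 1.15, 0.992, 9.07 and 2.80 FPKM at 96 h and 0.543, 0.382, 5.02 and 1.17 FPKM at 120 h. Dnmt3b, the de novo methyltransferase of epiblast cells, fell from 44.6, 45.5, 50.6 and 48.3 FPKM to 25.2, 23.9, 28.9 and 25.1 FPKM (log2 change -0.87 ± 0.05, adjusted p = 0.00257). Of 17 listed genes, 6 stayed below the filter, Eomes and Gsc among them.

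Genes of formed and differentiating somites rose, 11 of 20 tested being called higher and 2 lower (Foxc1 and Aldh1a2, the latter described above), with a median log2 change of 1.91 and 6 rises with replicates 1 and 2 averaged. The sclerotome factor Pax1 was listed at 0.0163, 0, 0.0295 and 0 FPKM at 96 h and read 14.4, 15.6, 13.2 and 26.4 FPKM at 120 h, the largest fitted rise among the named genes (log2 change 7.25 ± 0.25, adjusted p = 0.00116), although the log2 value depends on the added 0.1 FPKM. Its relative Pax9 reached 1.35, 1.299, 2.11 and 3.73 FPKM from under 0.1 FPKM. Nkx3-2, another sclerotome homeobox gene, was listed at 0 in all 4 libraries at 96 h and read 1.21, 1.13, 0.930 and 1.11 FPKM at 120 h. Uncx, a marker of the posterior side of each somite, read 0.334, 0.242, 0.0822 and 1.06 FPKM at 96 h and 14.5, 15.5, 12.2 and 4.90 FPKM at 120 h (log2 change 4.69 ± 0.74, adjusted p = 0.0192), with the smallest rise in replicate 4, and was not called with replicates 1 and 2 averaged (adjusted p = 0.0884).

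Among genes of whole somites, Meox1 was already abundant and read 116, 105, 67.5 and 216 FPKM at 96 h and 279.9, 287, 350.4 and 318 FPKM at 120 h. All 120 h libraries were above the highest 96 h value (log2 change 1.41 ± 0.31, adjusted p = 0.0424), but the call was lost with replicates 1 and 2 averaged (adjusted p = 0.140). Meox2 went from 0.551, 0.612, 0.233 and 1.25 FPKM to 12.7, 11.7, 14.0 and 11.8 FPKM (log2 change 4.22 ± 0.39, adjusted p = 0.00615). Tcf15, also a somite factor, had groups that did not overlap but was not called (log2 change 1.72 ± 0.50, adjusted p = 0.0762). Pax3 and Pax7, paired-box genes of dermomyotome and dorsal neural tube, rose by 2.11 and 3.24, and Scx, a tendon-precursor factor, by 2.95. Foxc1 fell by 0.64, and Foxc2, Twist1, Sim1 and Tbx18 were not called. Myf5 and Myf6, which start muscle differentiation, stayed below the filter, at most 0.321 FPKM.

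Igfbp5, a binding protein of insulin-like growth factors, read 3.84, 3.605, 1.45 and 4.16 FPKM at 96 h and 387, 415, 239 and 313 FPKM at 120 h (log2 change 6.72 ± 0.19, adjusted p = 0.00103). Cxcl12, a chemokine, went from 3.44, 3.14, 3.01 and 3.802 FPKM to 163, 169.7, 105 and 122 FPKM (log2 change 5.32 ± 0.15, adjusted p = 0.00103), and in both genes replicate 3 was the lowest at 120 h. Fmod, a small proteoglycan of the matrix, was at or under 0.0247 FPKM at 96 h and read 13.4, 15.3, 6.99 and 9.05 FPKM at 120 h. Fap, a cell-surface protease, reached 12.9, 13.8, 7.53 and 11.7 FPKM from at most 0.0226 FPKM, and Islr, a secreted protein with leucine-rich repeats, rose by 4.56. Itih5, a hyaluronan-associated protein, rose by 4.45. Of 19 tested collagen and matrix genes 9 rose and 3 fell (median 0.39, and 5 rises and 3 falls with replicates 1 and 2 averaged), while the summed FPKM of the list was 462.8 to 594.2 at 96 h and 403.4 to 456.6 at 120 h. Col2a1, the cartilage collagen, read 3.59, 4.30, 4.47 and 3.56 FPKM at 96 h and 33.6, 33.9, 30.7 and 37.7 FPKM at 120 h (log2 change 3.07 ± 0.12, adjusted p = 0.00140), and Col4a1, a basement-membrane chain, rose by 0.92. Fn1, fibronectin, fell in contrast from 221, 216, 223 and 284 FPKM to 63.5, 62.4, 82.3 and 69.5 FPKM (log2 change -1.76 ± 0.11, adjusted p = 0.00292), and Lama1, a laminin chain, by 1.33.

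Neural genes moved both ways, 7 of 12 tested being called higher and 2 lower (median 1.22, 3 rises and 2 falls with replicates 1 and 2 averaged). Sox1, a neural plate factor, read 0.156, 0.0699, 0.321 and 0.382 FPKM at 96 h and 1.95, 1.77, 1.82 and 4.72 FPKM at 120 h (log2 change 2.995 ± 0.24, adjusted p = 0.00465). Sox3 went from 1.66, 1.78, 1.84 and 1.98 FPKM to 7.17, 6.54, 8.02 and 15.8 FPKM, Irx3 rose by 2.49 and Pax6, a factor of the neural tube, from 0.612, 0.602, 0.637 and 1.21 FPKM to 2.27, 2.44, 1.87 and 10.6 FPKM. For Sox1, Sox3, Pax6 and Irx3, replicate 4 was the highest at 120 h and the stages did not overlap. The genes of neuronal differentiation Neurog1, Neurog2, Neurod1 and Dcx did not pass the filter, with at most 0.541 FPKM in any library. Stmn2 fell (log2 change -3.02 ± 0.31, adjusted p = 0.00761). The summed FPKM of the list went from 379.9 to 476.4 at 96 h to 124.3 to 159.3 at 120 h, of which Crabp1, also a retinoid gene, made up 429, 439, 328 and 397 FPKM and then 72.5, 66.7, 74.2 and 53.7 FPKM.

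None of 12 blood genes passed the filter, with no library above 0.542 FPKM for any of them. In the endothelial list 6 of 20 genes were tested, Kdr, Pecam1 and Cdh5 stayed under 2 FPKM, and Lmo2 and Aplnr, which mesoderm also expresses, fell by 2.49 and 3.61, while Fli1 rose by 1.79. In the cardiac list 4 of 18 were tested, and Tnnt2, a troponin, rose (log2 change 2.81 ± 0.36, adjusted p = 0.0120) while Myl4 and Smarcd3 fell. Summed over all its genes, the endothelial list stood at 132 to 139 FPKM at 96 h and 35.8 to 47.2 at 120 h, and the cardiac list at 21.2 to 26.7 and then 16.5 to 20.5. The time-course pairs moved both ways. Their endothelial sums went from 148 to 212 FPKM in replicate 1 and from 145 to 60.5 in replicate 2. Their cardiac sums went from 17.6 to 43.5 FPKM and from 93.2 to 20.5. Averaging control replicates 1 and 2 left 1 rise and 2 falls of the endothelial list and 1 fall of the cardiac list. Of 12 tested endoderm genes, 1 fell (Cdh1, log2 change -1.99 ± 0.40, adjusted p = 0.0350), 2 rose, Apela among them, and 9 were not called, shares close to those of all genes (13.4% higher and 9.81% lower). Limma with replicates 1 and 2 averaged called 0 of the 12 (adjusted p = 0.120 for Cdh1 and 0.122 for Apela). The list summed to 109 to 216 FPKM at 96 h and 38.6 to 250.4 at 120 h, with replicate 3 the highest at both stages. Trh, a hormone precursor on this list, read 121, 79.0, 122 and 37.6 FPKM at 96 h and 11.96, 12.4, 159 and 39.8 FPKM at 120 h, with pairs that moved both ways. In the notochord list T fell, Cav1 rose, and Foxa2 and Chrd were not called. In the intermediate mesoderm list 2 of 6 rose, Wt1 among them (log2 change 4.67 ± 0.29, adjusted p = 0.00282), and 3 fell. Of 5 lateral plate and limb genes 2 fell, Msx1 and Fgf10. Of 4 neural crest genes Ets1 and Snai2 rose, Ets1 from 1.85, 2.13, 1.61 and 3.71 FPKM to 20.5, 21.2, 14.7 and 25.0 FPKM, while Sox10, Foxd3 and Tfap2a stayed below the filter. With replicates 1 and 2 averaged, 1 notochord fall (T), 1 rise and 1 fall of intermediate mesoderm, 1 lateral plate and limb fall and 1 neural crest rise were called.

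Among genes of pluripotent cells replicate 3 stood apart at both stages. Dppa5a read 19.4, 20.5, 225 and 24.8 FPKM at 96 h and 27.3, 26.9, 239 and 40.2 FPKM at 120 h, replicate 3 being the highest at both stages. Summed over the 21 listed genes, replicate 3 stood at 658.5 FPKM against 276.7 to 320.2 in the other 3 libraries at 96 h, and at 553.5 against 172.3 to 257.1 at 120 h. Pou5f1 (Oct4) read 27.2, 28.7, 80.9 and 32.2 FPKM at 96 h and 4.92, 4.95, 58.6 and 13.4 FPKM at 120 h. It was lower in every pair and was not called (log2 change -1.67 ± 0.41, adjusted p = 0.0534), and the drop in replicate 3 was 0.46 on the log2 scale. Nanog did not move in one direction (replicates 1 to 4 at 1.33, 1.53, 11.9 and 3.24 FPKM and then 1.75, 1.51, 11.5 and 3.25 FPKM). Of 17 tested genes 4 fell (Fgf4, Klf5, Klf4, Lin28a), 2 rose (Tdgf1 and Dppa2) and 11 were not called, and 1 fall and no rise remained with replicates 1 and 2 averaged. Of 6 tested germ cell genes only Ifitm3 was called, lower by 0.92, a call lost with replicates 1 and 2 averaged. The part of this difference in other results was not tested. Without replicate 3, 1197 genes were called higher and 788 lower.

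Imprinted genes, which are expressed from 1 parental copy, rose more often than they fell, 11 of 23 tested against 1 (median 0.37, 6 rises and 1 fall with replicates 1 and 2 averaged). Mest, a hydrolase-like gene of mesoderm, read 48.8, 46.1, 34.8 and 68.8 FPKM at 96 h and 938, 974, 588 and 1242 FPKM at 120 h, the largest difference in FPKM of all called genes with at least a 1-unit change (log2 change 4.23 ± 0.07, adjusted p = 0.000470). All 4 pairs rose and replicate 4 was highest at both stages. Plagl1, a zinc-finger factor, went from 2.77, 2.59, 1.66 and 2.94 FPKM to 22.9, 24.4, 15.8 and 37.2 FPKM (log2 change 3.24 ± 0.12, adjusted p = 0.00116), and Dlk1 rose by 1.49, Peg3 by 1.41, Cdkn1c, an inhibitor of cell division, by 1.76 and Nnat by 1.15. Nnat read 213, 227, 129 and 312 FPKM at 96 h and 555, 559, 310.0 and 495 FPKM at 120 h, so that replicate 4 at 96 h was above replicate 3 at 120 h, and its call was lost with replicates 1 and 2 averaged (adjusted p = 0.0618). The growth factor Igf2 rose (log2 change 0.48 ± 0.10, adjusted p = 0.0399) with widely spread libraries (222, 262, 143 and 101.6 FPKM at 96 h and 375, 364, 199 and 117 FPKM at 120 h), and its adjusted p with replicates 1 and 2 averaged was 0.122. Phlda2, a growth-restraining gene, was the 1 member that fell, from 20.5, 22.5, 95.3 and 25.4 FPKM to 0.911, 0.892, 3.74 and 1.33 FPKM (log2 change -4.41 ± 0.10, adjusted p = 0.000578), and replicate 3 stood above the rest at both stages.

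Other signaling lists were mixed. In the BMP and TGF-beta list 4 of 17 rose and 5 fell, Id2, a target of BMP signals, from 9.22, 10.4, 7.77 and 7.64 FPKM to 31.9, 35.4, 28.2 and 52.8 FPKM and Tgfb2 from 0.911, 0.529, 0.450 and 1.13 FPKM to 7.47, 8.01, 4.18 and 5.46 FPKM, while Id1 fell by 0.54. In the hedgehog list Gli2 rose (log2 change 2.07 ± 0.08, adjusted p = 0.00121), Smo rose by 0.34, 1 gene fell of 7 tested, and Ptch1 and Gli1 were not called. With replicates 1 and 2 averaged 3 rises and 4 falls of the BMP and TGF-beta list and 1 hedgehog rise were called. Of 14 genes of the epithelial-mesenchymal list 5 fell and 3 rose, with Cdh11, a mesenchymal cadherin, at 2.45 and Cdh1, the epithelial cadherin, at -1.99. Of 10 TALE genes, homeobox partners of Hox proteins, Meis1, Pbx4 and Pknox1 rose and Pbx3 and Tgif1 fell, by at most 1.35. Of 8 genes of DNA methylation Dnmt3a, Dnmt3l and Tet3 rose and Dnmt3b fell. After averaging replicates 1 and 2, 1 rise and 2 falls of the epithelial-mesenchymal list, 1 rise and no fall of the TALE genes and 1 rise and 1 fall of the DNA methylation genes were called. Over all genes 13.4% rose and 9.81% fell, or 3.87% and 3.05% with averaging.

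Housekeeping lists had median log2 changes between -0.40 and 0.26. Of 27 cell cycle genes 6 rose (22.2%, against 13.4% of all genes) and none fell, with a median log2 change of 0.12, and apart from Cdkn1c the largest was Ccnd1 (log2 change 0.64 ± 0.09, adjusted p = 0.0161). Of 19 tested glycolysis genes 1 rose (Hk1) and 2 fell (Aldoa, 0.73 lower, and Eno1, 0.35 lower), with a median of -0.29. Of 15 p53 targets 2 fell, Pmaip1 and Perp. By limma 0 of the 20 cholesterol genes were called (median 0.03, 0 at an unadjusted p under 0.05), and 0 of the 12 mitochondrial genes (median -0.40, 4 at an unadjusted p under 0.05). In the stress and immediate early list Atf3 and Hspa5 rose of 14 tested (14.3%, near the share of all genes). Averaging replicates 1 and 2 left 1 cell cycle rise and no call in the glycolysis, p53, cholesterol, mitochondrial or stress lists.

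Further named changes lay outside the lists. Ifitm1, an interferon-induced membrane protein of early mesoderm, read 1014, 987, 1180 and 1286 FPKM at 96 h and 295, 259, 361 and 270.2 FPKM at 120 h (log2 change -1.92 ± 0.11, adjusted p = 0.00253). Gm45889, a long noncoding RNA on chromosome 7, went from 327, 342, 361 and 337 FPKM to 87.7, 85.8, 101 and 77.0 FPKM. Foxd2, a forkhead gene, and Foxd2os, the transcript from the other strand beside it, rose together, Foxd2 from 0.0831, 0.101, 0.0301 and 0.0943 FPKM to 8.52, 9.35, 7.62 and 7.92 FPKM and Foxd2os from 0.288, 0.417, 0.349 and 0.691 FPKM to 17.1, 15.6, 13.7 and 14.0 FPKM. Rab3il1, an exchange factor for Rab proteins, rose by 4.79. Gcnt2, a glycosyltransferase, was listed at 0 in all 4 libraries at 96 h and read 3.94, 3.74, 5.30 and 7.17 FPKM at 120 h. Tesk2, a kinase, was listed at 0 in 3 of 4 at 96 h. Its replicate 3 read 2.715 FPKM at that stage, and the time course 3.65 and 2.28 FPKM. In the time course Tesk2 changed by 0.51 on the log2 scale (limma, adjusted p = 0.880). No change of level is read from the zeros of either gene. Among the falls, Sprr2a3 read 13.3, 17.6, 50.4 and 9.09 FPKM at 96 h and 0.0800, 0.182, 1.29 and 0.180 FPKM at 120 h (log2 change -5.60 ± 0.24, adjusted p = 0.00187), Ptgds, which makes prostaglandin D, fell by 4.14, Slc38a8, an amino acid transporter, by 4.36, Samd3 by 4.18 and Cd2, a cell adhesion protein, by 3.81. The calls of Samd3 and Tesk2 were lost with replicates 1 and 2 averaged (adjusted p = 0.0624 and 0.139).

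Some called falls were of genes listed at exactly 0 in all 4 libraries at 120 h, and no change of level is given for them. Copg2, a subunit of the COPI coat that cells use in membrane traffic, was listed at 28.5, 28.0, 28.5 and 31.7 FPKM at 96 h, and Tuba4a, an alpha-tubulin, at 6.29, 10.7, 41.0 and 25.3 FPKM. Ina, Armcx5 and Kifc2 were listed between 4.13 and 7.42 FPKM at 96 h. Copg2 lies beside Mest on chromosome 6 (mm10, Copg2 from 30747554 to 30896794 on the minus strand and Mest from 30723547 to 30748465 on the plus strand), and the loci overlap only between 30747554 and 30748465. The study ran Cufflinks with default parameters, for which the library type is unstranded. Whether the overlap bears on the 0 of Copg2 was not tested. Kifc2 (plus strand) and Foxh1 (minus strand) lie end to end on chromosome 15. In the time course Copg2, Tuba4a and Kifc2 were again at 0 in both 120 h libraries. In contrast, Ina was at 0 in replicate 1 and at 2.55 FPKM in replicate 2 at 120 h, and Armcx5 was at 0 in replicate 1 of both stages. Over all tested genes, 53 were at 0 in every 120 h control with a mean of at least 5 FPKM at 96 h and 49 the reverse, and 956 had a 0 in 1 control library and at least 5 FPKM in another. Of the 3298 called genes 26 were of this last kind. Over the 12 wild-type libraries, an estimate was marked as failed for 10 genes. Why the zeros arose was not tested, and a 0 of an abundant gene was not read as absence.

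Over all 14194 genes the changes of different pairs correlated across genes with Pearson's r of 0.492 for pairs 1 and 2 and 0.350 to 0.414 for the other 5 combinations, where genes are not independent replicates and pairs 1 and 2 come from the libraries that were alike. Over the 472 rises of at least 1 log2 unit the median change was 1.79, 1.73, 1.59 and 1.70 in pairs 1 to 4, and over the 411 falls it was -1.61, -1.75, -1.50 and -1.68, pair 3 changing least in both. These genes were chosen on the same values, so the medians are a description. By list, pair 4 had the deepest median fall of presomitic genes (-2.72 against -1.13 in pair 3) and the smallest median rise of somite genes (0.80 against 2.80). In 8 genes pair 4 moved by at least 1 against a move of at least 1 in each of pairs 1 to 3. Of these, Ntn5 and Ntng2 code for protein and the other 6 are small or noncoding RNAs and pseudogenes (Snora52, Gm26384, Gm37116, Gm13339, Gm11663 and Gm15466). Ntng2 read 2.75, 3.69, 2.80 and 0 FPKM at 96 h and 0.392, 0.430, 0.306 and 0.250 FPKM at 120 h and Ntn5 0, 0, 0.190 and 0.130 FPKM at 96 h and 1.66, 1.64, 1.38 and 0 FPKM at 120 h. In 7 of the 8, Gm15466 apart, a replicate 4 library was listed at 0, and none of the 8 was called.

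Of the 159 called genes named here, 58 were not called with replicates 1 and 2 averaged, namely Aldh1a2, Aldoa, Apela, Atf3, Cav1, Ccnd1, Cdh1, Cdx4, Dnmt3a, Dnmt3l, Dppa2, Eno1, Fgfr2, Foxc1, Gdf11, Hk1, Hoxb4, Hoxb7, Hoxb8, Hoxb9, Hoxc4, Hoxd8, Hoxd9, Hspa5, Id1, Ifitm3, Igf2, Klf4, Klf5, Lfng, Lhx1, Lin28a, Meis1, Meox1, Mesp1, Mesp2, Msx1, Myl4, Nkx1-2, Nnat, Pax3, Pax6, Pbx3, Perp, Pknox1, Pmaip1, Ripply2, Samd3, Scx, Smo, Snai2, Sox2, Spry1, Tdgf1, Tesk2, Tgif1, Tnnt2 and Uncx. The other 101 kept their call.

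The time-course libraries moved the same way in most genes. Of the 4019 genes higher in all 4 control pairs 2480 (61.7%) were higher in both time-course pairs, and of the 3054 lower ones 1886 (61.8%) were lower in both, against 30.3% and 24.8% of all tested genes. Among the called genes with at least a 1-unit change, 419 of 472 rises (88.8%) and 343 of 411 falls (83.5%) moved the same way in both time-course pairs. In limma on all 12 libraries, 409 genes were called higher (2.88%) and 273 lower (1.92%) in the time course. Of these, 327 were also called higher and 213 lower in the controls, which is 80.0% and 78.0% of the time-course calls but 17.2% and 15.3% of the control calls, and 4 genes were called in opposite directions. Each gene's spread in this fit is shared by all 12 libraries, so the calls in the controls and in the time course are not independent. Without control replicate 1, 111 genes were called higher and 72 lower in the time course, and without control replicate 2, 90 and 69.

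By list, somite genes had a median log2 change of 1.29 in the time course and presomitic genes one of -1.33, against 1.91 and -2.11 in the controls. Hox genes of groups 5 to 9 had 2.11 against 1.03, and limma called none of these 15 there. Those of groups 1 to 4 had 0.075 against -0.47, and limma called 1 of 11 lower and 0 higher in the time course. Median signs also turned in other lists. The endothelial median was 0.33 in the time course against -0.34. The caudal and timing list had 0.04 against -0.27 and the cardiac list -0.11 against 0.21. The 2 time-course libraries at 96 h stood far apart. Hoxb9 read 115 and 5.53 FPKM in them and Cdx4 46.8 and 0.953 FPKM, against 49.7, 60.5, 61.9 and 57.1 FPKM and 13.9, 17.3, 27.8 and 17.2 FPKM in the controls. Pax1 read 0.0177 and 0 FPKM at 96 h and 25.1 and 14.98 FPKM at 120 h in the time course, Igfbp5 7.17 and 10.9 and 356 and 472 FPKM, Mest 79.6 and 78.7 and 926 and 848 FPKM and Tbx6 159 and 110.2 and 28.8 and 38.6 FPKM, the log2 changes being 7.49, 5.52, 3.48 and -1.98.

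**Figure D5:**
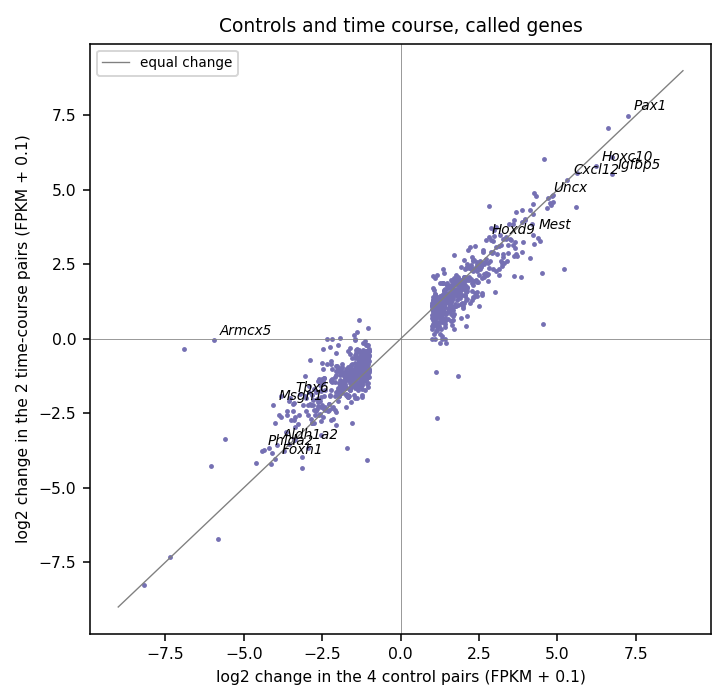
Log2 change from 96 h to 120 h in the 4 control pairs (horizontal axis) against that in the 2 time-course pairs (vertical axis), in log2(FPKM + 0.1) units, for the 883 genes called in the controls with at least a 1-unit change, with 13 genes labelled. Most points lie near the line of equal change, and Armcx5, listed at 0 in the 120 h controls, lies near 0 on the vertical axis.

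A difference between the 2 sets in the change from 96 h to 120 h was called for 9 genes (0.0634% of those tested), with 950 at an unadjusted p under 0.05. They were Armcx5, Mllt11, Rmnd5b, Hars2, Spata1, Gm12940, Gm49381, Gm17538 and Atp5l2-ps, and each of the 9 was listed at 0 in at least 1 of the 12 libraries. Rmnd5b, for example, was listed at 0 in both time-course libraries at 96 h and at 10.4 and 9.29 FPKM at 120 h, while the controls read 6.30, 6.99, 10.6 and 9.79 FPKM at 96 h and 8.73, 7.88, 9.66 and 10.7 FPKM at 120 h. Over the 12307 genes with no 0 in any of the 12 libraries, limma called 0 genes different, with 814 at an unadjusted p under 0.05.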

How the data were processed

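Bulk RNA-seq of pooled wild-type stembryos was analysed from the gene table of the series. The authors trimmed reads with cutadapt 1.16, aligned them to mm10 with STAR 2.7.7a, and deposited FPKM values estimated with Cufflinks 2.2.1 from uniquely mapped reads, which gives no counts. In the 12 wild-type libraries, an estimate was marked as failed for 10 genes. A stranded poly-A kit was used. Groups and replicate numbers came from the titles.

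From these values, log2(FPKM + 0.1) was computed and genes with a mean of at least 1 FPKM at either stage were kept. The 8 controls were fitted with limma 3.58.1 in R 4.3.3, with the replicate number as a block and Benjamini-Hochberg adjustment over all 14194 genes, called at 0.05. The change in the time course and the difference between the sets came from a fit of all 12 libraries. The script was tested on simulated data. Same-numbered libraries deviated together (r from 0.576 to 0.898, and from 0.155 to 0.389 within replicates 1 to 3), so the numbers were taken as pairs, from the data and not from a label, and replicates 1 and 2 could not be told apart by this check.

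Members of 35 gene lists were described by counts, with values for those that changed most and for defining genes. The 15 largest rises and 15 largest falls of named genes with at least 5 FPKM in the higher stage, the 10 largest FPKM differences, the genes in which pair 4 moved by 1 against the other pairs, and the genes that differed between the sets were named. The members, lists and rule were chosen with earlier results of these data known. Gm45889 and the genes listed at 0 beside other genes were placed with the gene annotation of the same build. Alternatives were the block, pseudocount, filter, scaling, variance trend, all 61 libraries, each replicate left out, replicates 1 and 2 averaged and genes listed at 0 left out. A few genes are not reported here.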

Additional observations from a re-analysis of the deposited data

Results flagged for a closer look

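Among 424 groups of 4 control libraries, 1 group per named gene and stage, 55 libraries lay far from the other 3 on the log2(FPKM + 0.1) scale, by more than Dixon's critical value for 4 values. For 4 independent values from 1 normal distribution, this picks out about 1 in 20 groups, here about 21. These libraries are not such values, since replicates 1 and 2 are much alike and replicate 4 belongs to another library set. The number to be expected here is therefore not known. Of the 55, 37 were replicate 4, 17 replicate 3, 1 replicate 2 and 0 replicate 1, and replicates 1 and 2 are the pair that differed little beyond sampling. Named genes were partly chosen on these values, 17 of them because pair 4 moved against the others or because the time course differed. Without these, 38 libraries in 390 groups stood apart (about 20 at the rate for independent values), 20 of them replicate 4 and 17 replicate 3. Why they stood apart was not tested.

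At 96 h, replicate 3 stood apart for Apela (6.28), Dppa2 (3.07), Dppa5a (225), Hoxc10 (0.0628), Hoxc6 (7.85), Hoxd9 (5.46), Igfbp5 (1.45), Phlda2 (95.3), Pou5f1 (80.9), Rspo3 (66.7), Sox2 (13.9) and Tesk2 (2.71), in FPKM. At 120 h it did so for Aldh1a2 (36.0), Aplnr (6.38), Dppa2 (3.66), Samd3 (0.672) and Wnt5b (11.2). The Pou5f1, Dppa2 and Dppa5a values belong to the higher pluripotency sums of replicate 3. Replicate 2 stood apart for Cdh1 (15.1) at 96 h.

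Replicate 4 at 96 h was far from the rest for Cd2 (9.80), Copg2 (31.7), Fap (0.0226), Fn1 (284), Gm11663 (0.373), Hk1 (11.3), Hoxa5 (16.1), Irx3 (1.42), Pax6 (1.21), Snora52 (7.60), Spry1 (8.16) and mt-Co2 (1.42), and at 120 h for Fli1 (3.18), Gm15466 (0.297), Hes7 (5.32), Hoxd8 (6.74), Hoxd9 (4.93), Pax6 (10.6), Sox1 (4.72), Sox2 (32.4), Wnt5a (25.3) and mt-Co2 (0.447). It was listed at 0 against values in the other replicates for Atp5l2-ps, Gm13339, Gm17538, Gm26384, Gm49381, Mllt11, Ntng2 at 96 h and Atp5l2-ps, Gm11663, Gm17538, Gm37116, Gm49381, Hoxa3, Mllt11, Ntn5 at 120 h. These zeros fall in the library set with mt-Co2 at or under 1.42 FPKM.

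The change from 96 h to 120 h differed between the time course and the controls in 9 genes by the difference term of limma. The time-course change minus the control change, on the log2 scale, was Armcx5 (5.88), Atp5l2-ps (-1.96), Gm12940 (7.35), Gm17538 (-2.69), Gm49381 (-7.56), Hars2 (6.04), Mllt11 (6.68), Rmnd5b (6.48) and Spata1 (3.65). Each of the 9 was listed at 0 in at least 1 of the 12 libraries.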

How the results depend on the processing

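Every count of genes with the same direction in all 4 pairs stayed within 1.5 times its value under the alternatives run, and the median change of all genes stayed within 0.1. Counts of calls moved more. Without the replicate block, 968 genes were called higher and 683 lower in the controls, 254 and 142 in the time course, and 4 differed between them. With no filter 1256 were called higher. Averaging replicates 1 and 2, an alternative chosen after seeing the data, left 549 and 433. Leaving out 1 control replicate at a time gave 475 to 1782 higher and 378 to 1223 lower in the controls, 90 to 307 and 69 to 237 in the time course, and 9 to 34 genes that differed, the lowest calls being without replicate 2 and the 34 without replicate 4. With a pseudocount of 1, 3 genes differed, and with genes listed at 0 left out, also chosen after seeing the data, limma called 0, with 814 at an unadjusted p under 0.05. No called gene named in the report changed direction under any alternative. Among named genes that were not called, directions turned in 11. Leaving out 1 replicate at a time gave log2 changes of -0.057 to 0.052 for Chrd, -2.74 to 1.48 for Gm26384, -1.46 to 1.19 for Gm37116, -0.14 to 0.16 for Hars2, -0.036 to 0.11 for Hoxa2, -2.45 to 0.28 for Hoxa3, -0.010 to 0.16 for Hoxa5, -0.26 to 0.014 for Hoxb6, -0.022 to 0.12 for Nanog and -0.53 to 0.10 for Sim1. Median scaling turned Hoxa2 to -0.0091 and Hoxa5 to -0.015, averaging replicates 1 and 2 turned Chrd to 0.028 and Hoxa2 to -0.0049 and Hoxa5 to -0.0084, a pseudocount of 1 turned Gm26384 to -0.47 and one of 0.01 turned Gm11663 to -0.29. Of 212 named genes, 31 lost their call without the block and 58 with replicates 1 and 2 averaged. The cause of these moves was not tested. Leaving out a replicate or averaging 2 leaves 3 pairs in each case. Without replicates 1, 2, 3 and 4 in turn, 508, 475, 1197 and 1782 genes were called higher in the controls. Depth of 21.3 to 27.3 M fragments and exact zeros limit low genes.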
